A study of Mus musculus with 20 samples.

Results

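The 4 tissue inhibitors of metalloproteinases (Timp1, Timp2, Timp3 and Timp4) and 6 proteases of the extracellular matrix (Adamts1, Adamts4, Adamts5, Mmp2, Mmp9 and Mmp14) were followed in mouse soleus and gastrocnemius after a day of unloading. They were taken by name alone: every noncontrol probe whose gene name on the array is 1 of these 10 symbols was used, which gave 16 of 41174 probes. All 10 genes were among the 25292 genes tested, and 15 of the 16 probes passed the filter on dim signal. All mice were male, of the ICR strain, 6 months old and caged singly, and the labels name no transgene or drug. Control mice moved freely for 24 h, and the other mice spent 24 h in hind-limb suspension (HLS), hung by the tail at a head-down tilt of 45° so that the hind limbs bore no weight. Each muscle and condition had 5 one-colour arrays from 5 mice, and within an arm the soleus and gastrocnemius of 1 animal number came from the same mouse. The RNA came from whole muscle, so fewer cells of a type and less RNA per cell cannot be told apart.

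Timp proteins sit in the active site of matrix metalloproteinases and block it, and Timp3 also inhibits Adam and Adamts proteases. Adamts1, Adamts4 and Adamts5 are secreted proteases that cut the proteoglycans versican and aggrecan, while Mmp2 and Mmp9 (the gelatinases) cut denatured collagen and the type IV collagen of basement membranes. Mmp14 is anchored in the cell membrane and, with Timp2 as its partner, cuts pro-Mmp2 into the active enzyme. In skeletal muscle these genes are expressed largely by cells between the fibres, and their products remodel the sheath through which fibres pass on force.

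Levels are log2 intensity over the 75th percentile of the array, and levels of different probes were not compared. Each array measured 80.5% to 93.0% of its probes well above background, and replicate arrays correlated at 0.971 to 0.988. With 5 arrays a group, their number limits the precision. Control muscles matched their labels: the mean of 8 slow-fibre genes ran from 7.42 to 7.84 on the control soleus arrays and from 4.85 to 5.78 on the control gastrocnemius arrays. Soleus HLS 1 stood apart with a slow-fibre mean of 5.30, against at least 6.95 on the other soleus HLS arrays. That value lay within the range of the gastrocnemius arrays (4.40 to 5.78), and its mean of 9 fast-fibre genes (8.57) lay above that of every gastrocnemius array (highest 8.38). Its list means thus read nearer to gastrocnemius, but not every marker did. Myh7 was at least 8.58 on all soleus HLS arrays, against at most 8.12 on the gastrocnemius arrays. Tnni2 was at least 9.01 on all soleus HLS arrays, against at most 8.93. This fast-fibre gene was also higher in control soleus (median 9.05) than in control gastrocnemius (8.77). Other markers reached or passed the gastrocnemius range in soleus HLS. The lowest soleus HLS value was 4.15 for Tnni1 and 6.70 for Tnnt1, against control gastrocnemius highs of 4.19 and 6.71. The highest was 9.47 for Myh4 and 7.03 for Pvalb, against gastrocnemius HLS highs of 8.96 and 7.31. The cause was not tested. Soleus HLS results without it are given for the 10 genes and for several of the lists. Scaling to the array median moved the split of all genes called from 604 higher and 896 lower to 381 and 948 in soleus HLS, and from 3208 higher and 5276 lower to 6003 and 3304 between the control muscles. After HLS it moved the split between the muscles from 3379 higher and 4449 lower to 5995 and 3060.

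Timp1 and Adamts1 fell after HLS in both muscles, and no other gene of the 10 passed the test there. In soleus 2 of 10 genes were called, both lower, against 5.93% of all genes called in either direction and 3.54% called lower (limma, Benjamini-Hochberg adjusted p below 0.05 over all genes). In gastrocnemius the same 2 genes were called lower, against 3.17% of all genes called and 2.01% called lower. The median difference over the 10 genes was -0.04 in soleus and -0.11 in gastrocnemius, beside 0.05 and 0.01 over all genes.

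**Figure D1:**
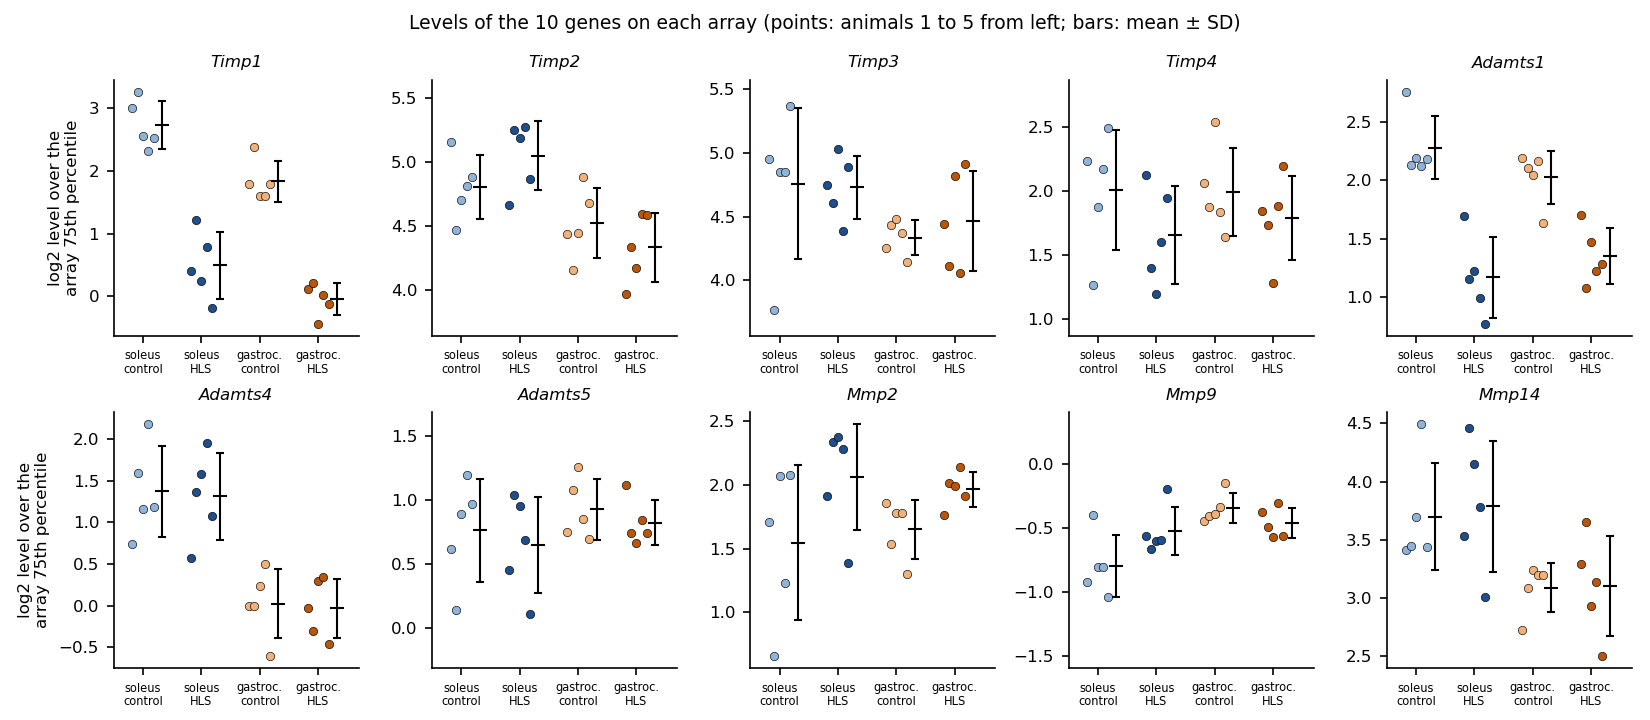
Level of each gene on each array (log2 intensity over the array's 75th percentile, each gene by its brightest kept probe), with 5 arrays per group as points and the mean ± SD as bars, on axes that differ between panels. The HLS arrays of Timp1 lie below all control arrays of the same muscle, and the soleus arrays of Adamts4 lie above all gastrocnemius arrays.

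Timp1, an inducible secreted inhibitor, showed the largest HLS difference of the 10 genes in both muscles. On its brightest probe (A_52_P87713) the 5 control soleus arrays stood at 3.01, 3.26, 2.55, 2.33 and 2.53, and the soleus HLS arrays at 0.41, 1.22, 0.25, 0.79 and -0.19. Every HLS array lay below every control array. Timp1 thus fell by 2.24 ± 0.23 (log2, SE, n = 5 against 5, limma adjusted p = 4.31e-06), a 4.72-fold lower level, and the difference was -2.22 (adjusted p = 2.15e-05) without soleus HLS 1. In this contrast Timp1 held the 10th lowest log2 difference of the 25292 genes. In gastrocnemius the control arrays stood at 1.80, 2.38, 1.60, 1.60 and 1.80 and the HLS arrays at 0.12, 0.21, -0.44, 0.02 and -0.12. The groups again did not overlap, and Timp1 fell by 1.88 ± 0.23 (limma adjusted p = 8.44e-05), a 3.67-fold lower level that was again the 10th lowest difference of all genes. Complete separation of HLS below control was seen for 2.89% of all genes in soleus and 4.51% in gastrocnemius, and among the 10 genes for Timp1 and Adamts1 in soleus and for Timp1 in gastrocnemius.

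The order of the groups for Timp1 was control soleus (2.74 ± 0.39, SD), control gastrocnemius (1.83 ± 0.32), HLS soleus (0.50 ± 0.54) and HLS gastrocnemius (-0.04 ± 0.25). The last pair overlapped, with a soleus minus gastrocnemius difference of 0.54 (95% interval 0.06 to 1.01, limma adjusted p = 0.080). By the file headers, slides 2 and 5 held 2 groups and the other slides 1 each, while scan day 1 held both gastrocnemius groups, scan day 2 held all groups but control gastrocnemius, and scan day 3 held soleus HLS arrays alone. On slide 5, with 3 soleus HLS arrays and 1 control, Timp1 differed by -1.90, and on scan day 2, with 3 soleus HLS arrays and 5 controls, by -2.11. For gastrocnemius, slide 2 (1 HLS array against 3 controls) gave -1.55 and scan day 1 (1 against 5) gave -1.72. With slide as a fixed block, where these few arrays alone carry the comparison, Timp1 was not called in soleus (adjusted p = 0.13) or gastrocnemius (adjusted p = 0.26), nor with scan day as a block in gastrocnemius (adjusted p = 0.11).

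All 3 Timp1 probes were lower after HLS, to different degrees. Probe A_51_P512384 fell by 1.56 in soleus (limma over all probes, adjusted p = 1.51e-05) and by 1.00 in gastrocnemius (adjusted p = 0.0027). Its control soleus arrays ran from -0.73 to 0.27 and its soleus HLS arrays from -1.87 to -1.19, without overlap. Probe A_51_P512379 fell by 0.55 in soleus (adjusted p = 0.0083). In gastrocnemius its difference of -0.32 was not called (adjusted p = 0.18), although its HLS arrays (-0.40 to -0.26) all lay below its controls (-0.19 to 0.05). Over the 20 arrays, which share the 4 groups, the brightest probe correlated with the others at 0.93 and 0.53. At the level of probes, 5 of 15 were called lower in soleus and 3 of 15 in gastrocnemius, against 3.21% and 1.74% of all probes, and those called were the probes of Timp1 and Adamts1.

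**Figure D2:**
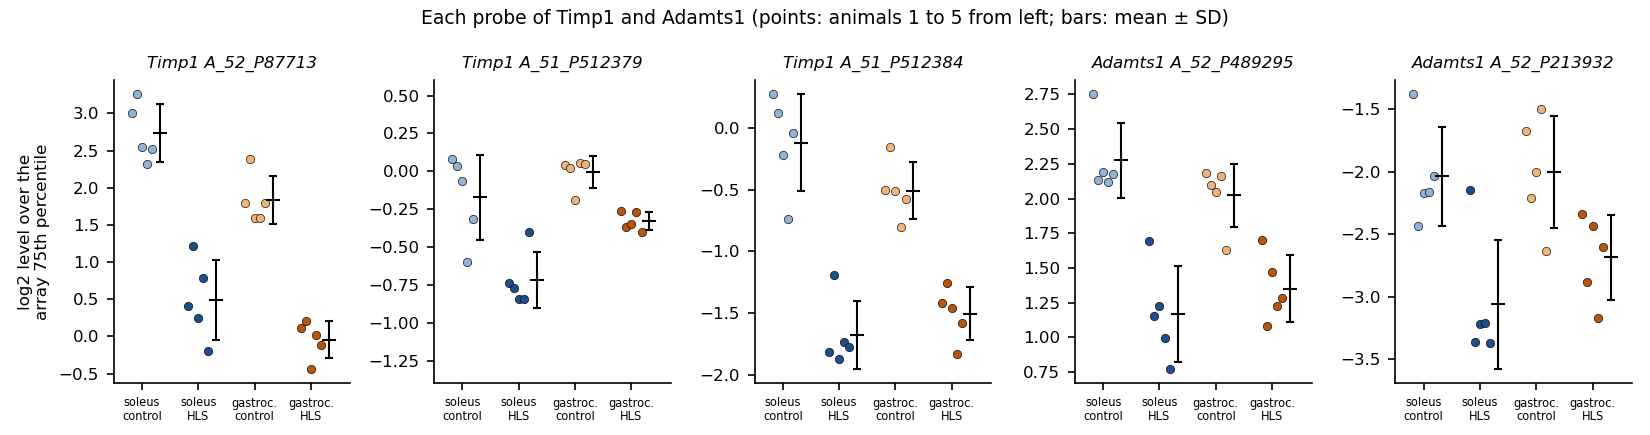
Level of each probe of Timp1 and Adamts1 on each array (log2 intensity over the array's 75th percentile; axes differ between panels), with 5 arrays per group as points and the mean ± SD as bars. The HLS means lie below the control means for all 5 probes in both muscles, with differences of -2.24 to -0.55 in soleus and -1.88 to -0.32 in gastrocnemius. With spike-in scaling, which raised the median gene of gastrocnemius HLS by 0.79, the gastrocnemius difference of Adamts1 on its brightest probe turned to 0.11.

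Adamts1, a protease that cuts versican and also binds the growth factor Vegfa, was the other gene to fall. Its brightest probe (A_52_P489295) stood at 2.76, 2.13, 2.19, 2.12 and 2.18 on the control soleus arrays and at 1.70, 1.16, 1.23, 1.00 and 0.77 on the soleus HLS arrays. The groups did not overlap, and control 1 was well above the other controls. Adamts1 fell by 1.11 ± 0.17 (limma adjusted p = 2.67e-04), a 2.15-fold lower level, and by 1.24 (adjusted p = 6.77e-05) without soleus HLS 1. On slide 5 the soleus difference was -0.82 and on scan day 2 it was -0.91, and with slide as a fixed block the call was lost (adjusted p = 0.51).

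In gastrocnemius the fall was smaller and less firm. The control arrays stood at 2.19, 2.10, 2.05, 2.16 and 1.63 and the HLS arrays at 1.70, 1.08, 1.47, 1.22 and 1.28, so HLS 1 overlapped control 5. Adamts1 fell by 0.67 ± 0.17 (limma adjusted p = 0.029), but with spike-in scaling it read 0.11 higher, under a median gene that itself read 0.79 higher. Leaving out control 1, 2, 3 or 4, or HLS 2, 4 or 5, gave -0.67 to -0.60 with an adjusted p of 0.063 to 0.079. Slide 2 alone gave -0.25 and scan day 1 alone -0.33, each with the single HLS array 1, which was the highest of its group.

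The second Adamts1 probe (A_52_P213932), which was well above background on 19 of the 20 arrays, moved with the first at a correlation of 0.91. It fell by 1.03 in soleus (limma over all probes, adjusted p = 0.018). In gastrocnemius its difference of -0.68 was not called (adjusted p = 0.18).

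The proximal promoters of Timp1 and Adamts1 are printed because only these 2 of the 10 genes were called after HLS. Over the 20 arrays their levels correlated at 0.82, the highest of the 45 pairs among the 10 genes. These arrays share the 4 groups, so falls after HLS in both genes raise this value. Within each of the 4 groups the highest array was number 2 for Timp1 and number 1 for Adamts1. The windows hold 250 bases before and 50 after the annotated start, from RefSeq on GRCm38.p6, where 6 of the 10 genes had an entry. Timp1 is at chrX:20869916-20870215 on the plus strand and Adamts1 at chr16:85803064-85803363 on the minus strand. Capitals mark matches, on either strand, to TGANTCA and TGANTAA (forms of the site of AP-1, the Fos and Jun factor), GGAAGT (a form of the Ets site), CCGCCC (the GC box of Sp1), TATAAA (the TATA box) and the CArG box of serum response factor. No match overlapped another in either window.
Timp1: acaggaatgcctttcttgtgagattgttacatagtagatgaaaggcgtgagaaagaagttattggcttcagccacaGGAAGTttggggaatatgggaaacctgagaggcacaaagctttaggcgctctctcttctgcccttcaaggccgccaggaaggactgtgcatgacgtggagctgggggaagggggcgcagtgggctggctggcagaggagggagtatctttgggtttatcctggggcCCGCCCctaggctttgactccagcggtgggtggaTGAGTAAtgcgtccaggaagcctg
Adamts1: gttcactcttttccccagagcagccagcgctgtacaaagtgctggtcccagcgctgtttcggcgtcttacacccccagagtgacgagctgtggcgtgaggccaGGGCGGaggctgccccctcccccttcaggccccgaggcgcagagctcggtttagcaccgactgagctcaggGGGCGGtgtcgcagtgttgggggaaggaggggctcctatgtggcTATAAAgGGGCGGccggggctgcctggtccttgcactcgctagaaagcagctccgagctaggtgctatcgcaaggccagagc

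The Timp1 window held 1 GGAAGT at -174, 1 CCGCCC at -8 and, just past the annotated start at 27, a TGAGTAA that matches TGANTAA. The Adamts1 window held CCGCCC on the other strand at -147, -76 and -25 and a TATAAA at -32. Among all 32851 promoter windows of this length, 10.6% held TGANTAA, 23.8% held GGAAGT, 35.7% held CCGCCC and 13.6% held TATAAA. The form TGANTCA, held by 7.81% of all windows, and the CArG box, held by 1.63%, had no match in the 6 windows at hand. Of the other 4 windows, Timp4 held GGAAGT, and Timp2, Timp3 and Mmp14 held CCGCCC.

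Genes with a level profile like that of Timp1 were ranked by Pearson correlation over the 20 arrays, which share the same groups. A gene chosen in this way is likely to share the HLS fall. The falls and p-values below therefore describe these genes and are not separate evidence. The closest 4 were P2ry2 (0.96), Slc9a2 (0.96), Cnnm4 (0.95) and Oaf (0.95). Cnnm4, a magnesium transporter, fell in both muscles, with differences of -1.59 in soleus and -1.41 in gastrocnemius (limma adjusted p = 7.11e-08 and 6.70e-07). P2ry2, a receptor for extracellular nucleotides, fell by 1.02 and by 0.91 (adjusted p = 2.28e-05 and 2.03e-04). For Adamts1 the closest were Vegfa (0.95), Mlxipl (0.94), Abra (0.93) and Slc6a8 (0.92). Vegfa, the main growth factor of capillaries, fell by 1.51 in soleus and by 1.20 in gastrocnemius (adjusted p = 1.14e-04 and 0.0023). Abra, an actin-binding protein of striated muscle, also fell, with differences of -2.62 and -1.41 (adjusted p = 7.11e-08 and 2.17e-04). With spike-in scaling the gastrocnemius differences of P2ry2 (-0.13, adjusted p = 0.38) and Vegfa (-0.42, adjusted p = 0.087) were not called. Those of Cnnm4 and Abra (-0.64 each) were still called.

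Markers of cells between the fibres are set beside the falls of Timp1 and Adamts1. Of all genes, 5.93% were called after HLS in soleus and 3.17% in gastrocnemius. Whether the small counts of the marker lists exceed these shares was not tested. Over 10 smooth muscle and pericyte genes, the mean level ran from 2.35 to 2.54 on the gastrocnemius HLS arrays. On the gastrocnemius controls it ran from 2.65 to 3.11, without overlap. In soleus it ran from 2.34 to 3.02 after HLS and from 2.74 to 3.47 in controls. Among single genes, 4.51% lay wholly lower in gastrocnemius HLS. Spike-in scaling raised the median gene there by 0.79, while the median difference over these genes was -0.36 without it. The list means were not rescaled. Of these 10 genes 2 fell in soleus, Tagln by 1.20 and Cspg4 by 0.60. Cspg4 also fell by 0.40 in gastrocnemius, a call lost in 15 of 20 fits that left out 1 array each. There Cspg4 read 0.38 with spike-in scaling and was not called with scaling to the array median (limma adjusted p = 0.086). Over 12 fibroblast genes the soleus mean ran from 3.07 to 3.72 after HLS and from 3.24 to 4.01 in controls. In gastrocnemius it ran from 3.12 to 3.41 after HLS and from 3.26 to 3.54 in controls. Of these genes 2 were called lower in soleus (1 without soleus HLS 1) and 1 in gastrocnemius, Thy1 (-0.87). Thy1 was not called there with scaling to the array median (limma adjusted p = 0.052) or to the spike-ins (-0.09, adjusted p = 0.70). Of 10 endothelial genes 1 fell in each muscle, Flt1 by 0.61 in soleus (2 genes fell without soleus HLS 1) and Kdr by 1.12 in gastrocnemius. Both are receptors of Vegfa, and with spike-in scaling Kdr was not called in gastrocnemius (-0.34, limma adjusted p = 0.25). The endothelial means ran from 1.33 to 1.89 after HLS and from 1.51 to 1.89 in control soleus, and from 1.22 to 1.65 and from 1.38 to 1.54 in gastrocnemius. Of 6 adipocyte genes none passed, with a median difference of -0.76 in soleus (-0.32 without soleus HLS 1) and -0.20 in gastrocnemius. Their means ran from 1.46 to 3.84 after HLS and from 2.71 to 4.34 in control soleus, and from 0.70 to 1.45 and from 1.07 to 1.61 in gastrocnemius. Of 12 macrophage genes none passed in either muscle. Satellite cell genes went both ways, with 2 of 6 called higher and 1 lower in soleus. In gastrocnemius 1 of the 6 rose, Chrdl2 by 0.46, which was not called with scaling to the array median (limma adjusted p = 0.056). Neither the 10 neutrophil genes measured (1 rose in soleus without soleus HLS 1) nor the 7 Schwann cell genes gave a call. Of 9 tendon genes measured, Scx and Tnc fell in both muscles (in gastrocnemius 0.03 and 0.19 with spike-in scaling), with mean levels of 1.89 to 2.98 after HLS against 2.48 to 2.93 in soleus and of 2.00 to 2.63 against 2.42 to 2.70 in gastrocnemius. The defining smooth muscle, fibroblast, endothelial, adipocyte and macrophage genes were measured on all arrays, and the part of these cells in the falls of Timp1 and Adamts1 was not tested.

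**Figure D3:**
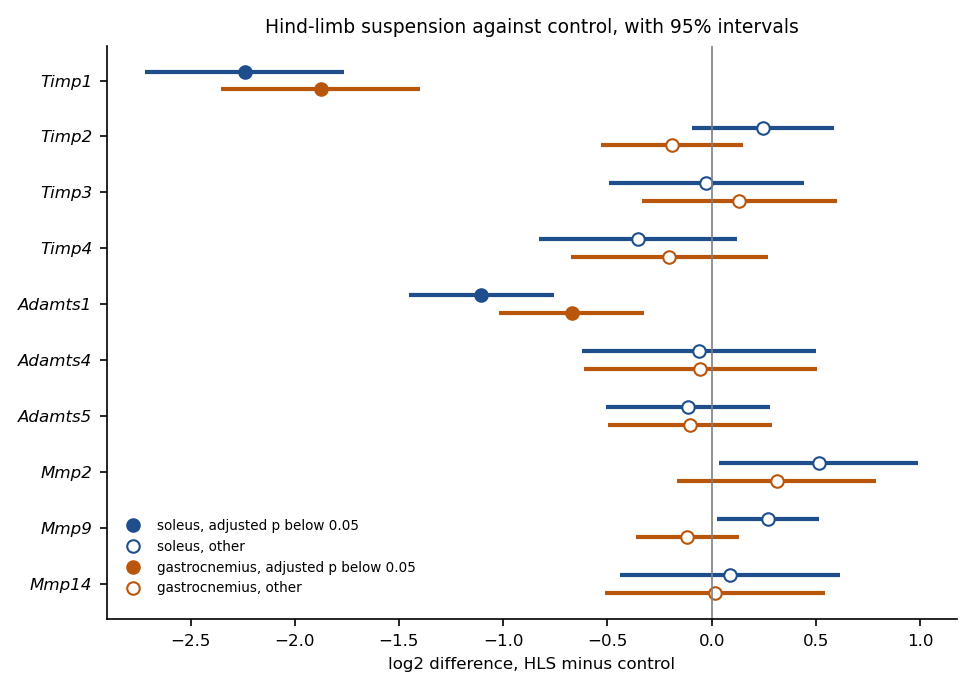
HLS minus control difference (log2) of each gene in soleus and gastrocnemius, as points with 95% intervals from limma, filled where the adjusted p was below 0.05. Timp1 and Adamts1 lie below 0 in both muscles and the other 8 genes are not called; under spike-in scaling Adamts1 in gastrocnemius read 0.11 and 5 of the other genes turned from below to above 0 there.

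The other 3 inhibitors gave no call after HLS in either muscle. Timp2, which both inhibits Mmp2 and helps Mmp14 to activate it, stood at 5.16, 4.47, 4.70, 4.81 and 4.88 on the control soleus arrays and at 4.67, 5.25, 5.19, 5.27 and 4.87 after HLS. These groups overlapped, with a difference of 0.25 (95% interval -0.10 to 0.59, limma adjusted p = 0.48). In gastrocnemius the controls stood at 4.43, 4.16, 4.45, 4.88 and 4.68 and the HLS arrays at 3.97, 4.34, 4.17, 4.59 and 4.59, with a difference of -0.19 (-0.53 to 0.15, adjusted p = 0.69). Timp3, the inhibitor that binds to the matrix itself, differed by -0.03 in soleus (-0.49 to 0.44) and by 0.13 in gastrocnemius (-0.34 to 0.60). Its control soleus arrays spread from 3.77 on array 2 to 5.37 on array 5, with an SD of 0.59. Timp4 differed by -0.35 in soleus (-0.83 to 0.12, adjusted p = 0.46) and by -0.20 in gastrocnemius (-0.68 to 0.27, adjusted p = 0.78). The lowest bound of the 6 intervals of Timp2, Timp3 and Timp4 was -0.83, and the highest bound of Timp1 on its brightest probe was -1.40. On Timp1 probe A_51_P512379 the highest bound was -0.30 in soleus and -0.07 in gastrocnemius, so this gap did not hold across probes.

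Adamts4 and Adamts5, the main aggrecan-cutting enzymes, also gave no call after HLS. Adamts4 stood at 0.74, 1.59, 1.15, 2.18 and 1.19 on the control soleus arrays and at 0.57, 1.37, 1.59, 1.95 and 1.08 after HLS. Both groups covered the same range, and the difference was -0.06 (95% interval -0.62 to 0.50). In gastrocnemius the controls stood at 0.00, 0.00, 0.23, 0.50 and -0.61 and the HLS arrays at -0.03, -0.30, 0.30, 0.34 and -0.46, with a difference of -0.05 (-0.61 to 0.51). Adamts5 differed by -0.11 in both muscles, with intervals of -0.51 to 0.28 in soleus and -0.50 to 0.29 in gastrocnemius. Its second probe (A_52_P70231) was well above background on 1 soleus HLS, 2 soleus control, 1 gastrocnemius HLS and 3 gastrocnemius control arrays, so it was left out.

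Without soleus HLS 1, Adamts4 in soleus turned to 0.12 (adjusted p = 0.87), and the differences of the 8 genes not called in soleus ran from -0.47 for Timp4 to 0.55 for Mmp2, still without a call.

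The 3 metalloproteinases gave no call after HLS. Mmp2 stood at 1.71, 0.66, 2.07, 1.23 and 2.07 on the control soleus arrays and at 1.92, 2.34, 2.38, 2.28 and 1.39 after HLS. The groups overlapped, and the difference of 0.51 (95% interval 0.03 to 0.99, unadjusted p = 0.037, limma) had an adjusted p of 0.24. In gastrocnemius Mmp2 differed by 0.31 (-0.17 to 0.79, adjusted p = 0.61). Mmp9, the gelatinase best known from neutrophils and macrophages, stood at -0.93, -0.40, -0.81, -0.80 and -1.04 on the control soleus arrays and at -0.57, -0.67, -0.60, -0.60 and -0.19 after HLS. Control 2 alone kept the groups from separating. The difference was 0.27 (0.03 to 0.52, adjusted p = 0.22), and 0.37 (adjusted p = 0.045) without soleus control 2. The second Mmp9 probe differed by 0.29 in soleus (-0.06 to 0.63, limma over all probes, adjusted p = 0.40). In gastrocnemius Mmp9 differed by -0.12 on its brightest probe and -0.11 on the second, without a call.

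Mmp14 on its brightest probe stood at 3.41, 3.44, 3.70, 4.49 and 3.44 on the control soleus arrays and at 3.53, 4.46, 4.15, 3.78 and 3.00 after HLS. The difference was 0.09 (95% interval -0.44 to 0.62) in soleus and 0.01 (-0.51 to 0.54) in gastrocnemius. Its second probe (A_52_P304128) differed by 0.12 and 0.14, also without a call.

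The test of whether HLS acted differently in soleus and gastrocnemius called none of the 10 genes (limma, adjusted p), and 1 of them had an unadjusted p below 0.05. Among all genes 0.00791% were called (2 genes, or 13 without soleus HLS 1), and 1455 had an unadjusted p below 0.05. For Timp1 the soleus effect minus the gastrocnemius effect was -0.36 (95% interval -1.04 to 0.31, adjusted p = 0.95). For Adamts1 it was -0.43 (-0.93 to 0.06, adjusted p = 0.89). Mmp9 had the lowest p of the 10, with a difference of 0.39 (0.04 to 0.73, unadjusted p = 0.031, adjusted p = 0.82). Timp2 gave 0.43 (-0.05 to 0.92, adjusted p = 0.88).

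Between the control muscles, Timp1 and Adamts4 were higher and Mmp9 was lower in soleus. These 3 of 10 calls stand against 33.5% of all genes called, 12.7% higher and 20.9% lower in soleus, so the share was near the background. The muscles shared no slide, and the only scan day that held both was day 2, with HLS arrays of both muscles but controls of soleus alone. Muscle and slide therefore cannot be told apart, and no scan day held controls of both muscles.

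Adamts4 gave the clearest difference between the muscles. Its 5 control soleus arrays (0.74 to 2.18) all lay above its control gastrocnemius arrays (-0.61 to 0.50), as its soleus HLS arrays (0.57 to 1.95) did above its gastrocnemius HLS arrays (-0.46 to 0.34). In controls the difference was 1.35 ± 0.27 (limma adjusted p = 8.44e-04), a 2.54-fold higher level, and after HLS it was 1.34 ± 0.27 (adjusted p = 0.0010). On scan day 2, with 3 soleus and 4 gastrocnemius HLS arrays, it was 1.21. With scan day as a block the control comparison was no longer called (1.34, adjusted p = 0.17). Soleus lay wholly above gastrocnemius for 2 of the 10 genes in controls (Adamts4 and Mmp14) and for 2 after HLS (Adamts4 and Timp2), against 8.31% and 7.99% of all genes.

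Timp1 was 0.90 ± 0.23 higher in control soleus (limma adjusted p = 0.0051) on its brightest probe, where soleus arrays ran from 2.33 to 3.26 and gastrocnemius arrays from 1.60 to 2.38. Its other probes differed by 0.39 (adjusted p = 0.091) and -0.17 (adjusted p = 0.30) over all probes, so the muscle difference did not hold across probes as the HLS fall did. A block for scan day gave 1.10 (adjusted p = 0.18), and the mean of the probes gave 0.37 (adjusted p = 0.053). Mmp9 differed by -0.45 ± 0.12 in control soleus against gastrocnemius (adjusted p = 0.0062) but by 0.60 under spike-in scaling, which raised the median gene by 1.00. Its second probe (A_52_P507214), printed as 10 spots whose SD within an array was 0.35 at the median, differed by 0.05 in controls and was 0.44 higher in soleus after HLS (adjusted p = 0.047 over all probes). The Mmp9 probes correlated at 0.11 over the arrays and gave no common answer on the muscles.

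After HLS, Timp2, Adamts4 and Mmp14 were higher in soleus, 3 of 10 genes against 31% of all genes called and 13.4% called higher. These 3 were also called without soleus HLS 1. For Timp2 all soleus HLS arrays (4.67 to 5.27) lay above all gastrocnemius HLS arrays (3.97 to 4.59), with a difference of 0.72 ± 0.16 (limma adjusted p = 0.0027). In controls the Timp2 difference was 0.28 (95% interval -0.06 to 0.62, adjusted p = 0.19). Mmp14 differed by 0.68 ± 0.25 after HLS (adjusted p = 0.046) and by 0.61 in controls (adjusted p = 0.070), where its soleus and gastrocnemius arrays did not overlap. Its call after HLS was lost in 12 of 20 fits that left out 1 array each, with an adjusted p of up to 0.14, and under 6 of the other settings, quantile normalization among them (0.54, adjusted p = 0.10). With the animal as a block, Mmp14 in controls (adjusted p = 0.016) and Timp1 after HLS (0.54, adjusted p = 0.017) were also called. The second Mmp14 probe differed by -0.02 in controls and -0.05 after HLS and correlated with the first at -0.15.

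**Figure D4:**
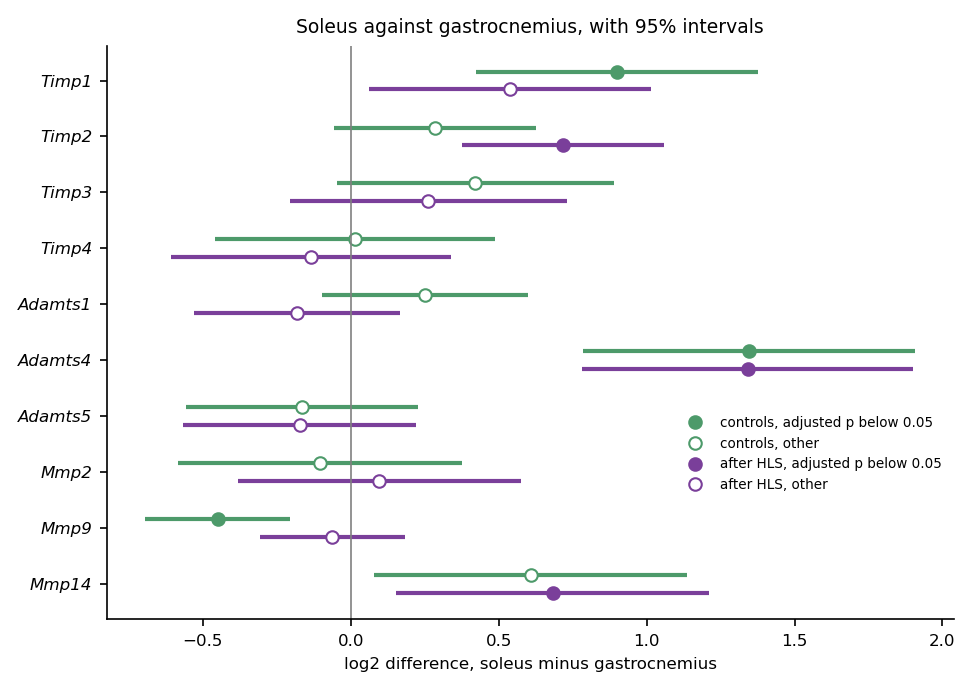
Soleus minus gastrocnemius difference (log2) of each gene in controls and after HLS, as points with 95% intervals from limma, filled where the adjusted p was below 0.05. Adamts4 lies at 1.35 in controls and 1.34 after HLS, while Mmp9 lies below 0 in controls on this scaling and at 0.60 with spike-in scaling.

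Without soleus control 2, whose Timp3 level of 3.77 was the lowest of all 20 arrays, Timp3 was 0.67 higher in control soleus (limma adjusted p = 0.0068), against 0.42 (95% interval -0.05 to 0.89, adjusted p = 0.16) with it. Without soleus HLS 5, Mmp14 in controls (adjusted p = 0.044) and Timp1 after HLS (0.71, adjusted p = 0.019) were called. Timp4, Adamts5 and Mmp2 did not pass between the muscles in either condition, with differences of -0.17 to 0.10.

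Lists of related genes are set beside the 5.93% of all genes called after HLS in soleus and the 3.17% in gastrocnemius. Of 15 other metalloproteinases measured, 1 rose in soleus, Mmp11, a secreted enzyme of tissue remodelling, by 0.82 (limma adjusted p = 0.025). The call was lost in 5 of 20 fits that left out 1 array each, and with scaling to the array median (adjusted p = 0.065). In gastrocnemius none of the 15 passed, and Mmp11 differed by 0.47 (adjusted p = 0.30). Of 19 other Adamts and Adamts-like genes, 2 fell in soleus, Adamts8 by 1.33 (adjusted p = 0.044) and Adamtsl5 by 0.83 (adjusted p = 0.0041). Adamtsl5 also fell by 0.95 in gastrocnemius (adjusted p = 0.0030), where it was not called with spike-in scaling (-0.17, adjusted p = 0.38). The Adamts8 call was lost when any 1 of 15 arrays was left out, soleus HLS 1 among them. Of 9 Adam sheddases, Adam15 fell in both muscles, by 0.73 (adjusted p = 4.70e-04) and by 0.43 (adjusted p = 0.049, lost in 13 of 20 fits without 1 array); with spike-in scaling the gastrocnemius difference turned to 0.35. Of 14 genes of the plasminogen system, cathepsins and convertases, Ctsl, the lysosomal protease cathepsin L, rose by 0.82 in soleus (adjusted p = 0.0029) and by 0.63 in gastrocnemius (adjusted p = 0.034, lost in 8 of 20 such fits). In gastrocnemius neither Adam15 (adjusted p = 0.085) nor Ctsl (adjusted p = 0.056) was called with scaling to the array median.

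Among 17 other inhibitors and clearance receptors none passed in gastrocnemius. In soleus Thbs1, a matrix protein that binds proteases and activates Tgfb1, fell by 1.07 (limma adjusted p = 0.0094), Serpine2 fell by 0.48 and Pcolce fell by 0.56 (adjusted p = 0.010 and 0.047). Pcolce, though on this list, is best known as an enhancer of procollagen processing and not as an inhibitor. Its call was lost in 17 of 20 fits without 1 array. In gastrocnemius Thbs1 had the lowest p, with a difference of -0.88 (adjusted p = 0.052). Of 29 matrix substrates 4 fell in soleus, among them Fbn1, the fibrillin of elastic fibres, by 0.93 (adjusted p = 0.0046), Tnc, the tenascin of tendon and its junctions, by 0.67 (adjusted p = 0.0038) and Col15a1, a basement membrane collagen, by 0.60 (adjusted p = 0.0017). The other was Col18a1, by 0.70 (adjusted p = 0.032), whose call was lost in 3 of 20 such fits, and 3 of the 29 fell without soleus HLS 1. In gastrocnemius 3 of the 29 fell, Fbn1 by 0.78, Tnc by 0.59 and Col15a1 by 0.46 (adjusted p = 0.029, 0.018 and 0.022). With spike-in scaling, however, Fbn1 read -0.002, Tnc 0.19 and Col15a1 0.31 there. The median difference over these 29 genes was -0.16 in soleus and -0.23 in gastrocnemius, beside 0.05 and 0.01 over all genes.

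Of 29 transcription factors and cytokines known to act on genes of these families, 4 fell and 1 rose in soleus (3 fell and 0 rose without soleus HLS 1), and 2 fell and 1 rose in gastrocnemius. Fos, a subunit of AP-1, fell by 0.95 in soleus (limma adjusted p = 0.0027). Ets1, a factor that binds GGAAGT-like sites, fell by 0.79 in soleus (adjusted p = 6.19e-04) and by 0.60 in gastrocnemius (adjusted p = 0.011). Jund, another AP-1 subunit, fell by 0.78 and by 0.67 (adjusted p = 7.61e-04 and 0.0055). With spike-in scaling Ets1 and Jund read 0.18 and 0.10 in gastrocnemius, and with normexp background correction Fos in soleus was not called (-0.42, adjusted p = 0.054). Hif1a fell by 0.50 in soleus (adjusted p = 0.027, lost in 6 of 20 fits without 1 array). Cebpd, a factor of the acute phase response, rose by 1.09 in soleus (adjusted p = 0.043, lost in 13 of 20 such fits, among them the one without soleus HLS 1) and by 1.32 in gastrocnemius (adjusted p = 0.022, lost in 5). None of the listed cytokines and receptors, such as Tgfb1 (-0.10 in both muscles) and Il6 (0.14 and 0.12), passed in either muscle.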

How the data were processed

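Total RNA (600 ng, with E1A spike-ins) was labelled with Cy3, per the labels' protocols. The authors' deposited arrays give linear spot intensity, written by Agilent Feature Extraction (version 9.1.3.1, per the file headers) and not scaled between arrays. The authors' deposited series table equals the processed intensity within 0.5% and served as an alternative.

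After uneven spots were removed, intensity was divided by the 75th percentile of the array's noncontrol spots, turned to log2 and averaged over the spots of a probe. The filter on dim signal required a probe to exceed background clearly on 4 or more of the 5 arrays in any group. The brightest such probe stood for its gene. Of all probes, 22951 were named through accessions, 6659 through current and 3109 through older symbols of the RefSeq table, and 8455 kept the file's name. One limma model (version 3.58.1, R 4.3.3) with a mean for each of the 4 groups covered all 20 arrays, with two-sided tests and Benjamini-Hochberg adjustment over 25292 genes, or over all kept probes for single probes. The threshold was 0.05. P-values measure the spread between these mice. The model was tested on simulated data, and figures were drawn with matplotlib 3.10.9.

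The alternatives were background correction, scaling, the dim-probe filter, the probe rule, slide, scan day, pairing, the arrays fitted and leaving out each array. Scaling to the spike-ins and list counts without soleus HLS 1 were added after seeing the data. Per the labels, both muscles of 1 number in an arm came from 1 mouse, which is why the animal was tried as a block for the muscle contrasts. Deviations of the muscles of a mouse from their group means correlated at -0.34 to 0.17 over 10 mice. The genes, lists and rules were chosen with earlier results of these data known. All 10 genes are named. From each pathway list the rule took, per HLS contrast, up to 2 passing genes at each end or, with none, the gene with the lowest p. For Timp1 and Adamts1 it took the 4 most correlated genes, and any cell type marker could be named. Genes named outside the rule, chosen after their values were seen, were Serpine2, Pcolce, Jund and Hif1a in soleus, Col15a1 in both muscles, Tnc in soleus, Tgfb1 and Il6. One gene of the inhibitor list that the rule would name is not reported here.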

Additional observations from a re-analysis of the deposited data

Results flagged for a closer look

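Of 60 sets of 5 arrays (15 probes in 4 groups), 11 held 1 array far from the other 4 by Dixon's test, a result that chance gives in about 1 of 20 sets. Timp1 read 2.38 on gastrocnemius control 2 (others 1.60 to 1.80). Its probe A_51_P512379 read -0.19 on gastrocnemius control 3 (others 0.02 to 0.05) and -0.40 on soleus HLS 5 (others -0.84 to -0.74), and its probe A_51_P512384 read -1.19 on soleus HLS 2 (others -1.87 to -1.73). Adamts1 read 1.63 on gastrocnemius control 5 (others 2.05 to 2.19) and 2.76 on soleus control 1 (others 2.12 to 2.19), and its second probe -2.14 on soleus HLS 1 (others -3.37 to -3.21). Mmp9 read -0.19 on soleus HLS 5 (others -0.67 to -0.57), and its second probe -3.21 on soleus HLS 3 (others -2.53 to -2.26). Mmp14 read 4.49 on soleus control 4 (others 3.41 to 3.70), and its second probe 0.78 on soleus control 2 (others 0.18 to 0.33).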

How the results depend on the processing

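Besides leaving out arrays, 620 values under other settings were set beside the reported ones: 19 lost a call, 19 gained one and 38 turned sign, 13 of them with a call before or after (reversals). Of the 10 genes, slide as a fixed block called 0 in soleus HLS and 0 in gastrocnemius HLS, and it could not be fitted between the muscles, which share no slide. Scan day as a block called 0 in gastrocnemius HLS and 0 between the control muscles. The mean of the probes called 1 in gastrocnemius HLS and 1 between the control muscles. Normexp called 4 of the probes in soleus HLS, gastrocnemius HLS or both. With the replicate block 1 gene was called in gastrocnemius HLS, Timp1, while Adamts1 was not (adjusted p = 0.0504 from limma), and with the animal as a block Mmp14 and Timp1 gained calls between the muscles. Control and HLS mice differ and share only a number; arrays of 1 number correlated at -0.30 to 0.17, and their own number correlated best for 1 of 5 pairs in soleus and 2 of 5 in gastrocnemius. Leaving out 1 array gave 2 to 3 calls in soleus HLS, 1 to 2 in gastrocnemius HLS, 0 to 0 for the interaction, 3 to 4 between the control muscles and 2 to 4 after HLS; 19 of 1000 such values lost a call, 4 gained one and 44 turned sign, 0 of them with a call before or after. The spike-ins lay 2.55 ± 0.08 above the 75th percentile in control gastrocnemius, against 1.77 ± 0.13 after HLS, and 1.50 ± 0.05 in control soleus, against 1.75 ± 0.20 after HLS (log2, SD). Scaling to them moved the median gene to 0.79 in gastrocnemius HLS, 1.00 between the control muscles, -1.01 for the interaction and -0.21 in soleus HLS, and called 9, 10, 10 and 2 of the 10 genes. Over all genes, soleus HLS gave 1500 calls, but 23 with slide and 777 with scan day as a block, 467 with the replicate block, 705 from its own 10 arrays and 3375 with spike-in scaling. Gastrocnemius HLS gave 802, but 10, 16, 449 and 23533 with slide, scan day, the replicate block and spike-in scaling. It gave 444 without gastrocnemius control 2 and 507 without gastrocnemius HLS 5. The control muscles gave 8484, but 1373 with scan day and 22591 with spike-in scaling, and the interaction gave 2, 23291 with spike-in scaling, 0 to 8 under other scalings, filters and blocks and 1 to 13 with 1 array left out. All 13 reversals came from spike-in scaling. In gastrocnemius HLS, Adamts1 read 0.11, Adamts4 0.72, Adamts5 0.67, Mmp9 0.66, Timp2 0.59 and Timp4 0.57. Between the control muscles, Adamts5 read 0.89, Mmp2 0.95 and Mmp9 0.60. For the interaction, Mmp14 read -0.96, Mmp2 -0.84, Mmp9 -0.65 and Timp2 -0.60. Timp1 in gastrocnemius HLS stayed at or under -1.07 in all settings tried. Of 36 other genes examined in soleus HLS and 23 in gastrocnemius HLS, 32 and 9 passed the test with spike-in scaling in either direction, and 0 and 8 turned sign; with scaling to the array median 32 and 18 passed and 0 turned sign. The cause of these shifts was not tested. Signal over background limits the second probe of Adamts5.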

Other observations

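Some genes had their highest array at the same number in every group, although control and HLS mice were different animals. On the brightest probe of each gene, array 2 was the highest of its group for Timp1 in all 4 groups, array 1 for Adamts1 and array 4 for Adamts4. By brightest probe this held for 3 of the 10 genes, against 1.12% of 25108 genes measured on all arrays. The other probes of Timp1 and Adamts1 did not keep it in every group. Timp1 probe A_51_P512379 was highest on array 2 in no group. In control soleus, Timp1 probe A_51_P512384 read 0.27 on array 1 and 0.12 on array 2. In control gastrocnemius the second Adamts1 probe read -1.50 on array 4 and -1.67 on array 1. In their other groups these last probes kept the number of the brightest probe. The number 2 arrays of Timp1 read 3.26 in control soleus, 1.22 in HLS soleus, 2.38 in control gastrocnemius and 0.21 in HLS gastrocnemius. The number 1 arrays of Adamts1 read 2.76, 1.70, 2.19 and 1.70 in the same order. The number 4 arrays of Adamts4 read 2.18, 1.95, 0.50 and 0.34, while its lowest arrays were number 1 in both soleus groups (0.74 and 0.57) and number 5 in both gastrocnemius groups (-0.61 and -0.46). For Timp2, number 4 was the highest in 3 of 4 groups. The pattern was noticed in these values and its cause was not tested.

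Among pairs of the 10 genes, Adamts4 and Mmp14 correlated at 0.72 and Timp2 and Adamts4 at 0.63 over the 20 arrays, and Timp3 and Mmp9 at -0.67. These arrays share the 4 groups, so the values describe levels across both muscles and conditions together.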
